A study of Mus musculus with 4 samples.

Results

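The immediate early transcription factors of the mouse ventricle were followed here as 10 genes chosen by name from a deposited table of 46603 genes. They are the orphan nuclear receptors Nr4a1, Nr4a2 and Nr4a3, the AP-1 subunits Fos, Fosb, Jun and Junb, the related bZIP factor Atf3, and the zinc finger factors Egr1 and Egr2. All 10 averaged 10 reads or more per library and were tested, among 14301 such genes. The hearts were from mice of the C57Bl6/J strain, 8 to 12 weeks old. They were WT (wild type) or P2Y6-null (KO), lacking a receptor for the nucleotide UDP. Each was injected intraperitoneally once a day for 7 days, with saline or with 50 mg/kg/day of isoproterenol, which activates beta-adrenergic receptors and makes the heart grow. The 4 groups were WT with saline, WT with isoproterenol, KO with saline and KO with isoproterenol, with 1 library each. The sources used here do not say whether a library stands for 1 heart or a pool, or how long after the last injection the hearts were taken.

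Immediate early genes are switched on from transcription factors already present in the cell, without new protein synthesis, and their messenger RNAs are short-lived. In heart muscle cells beta-adrenergic receptors raise cyclic AMP, which activates protein kinase A and the factor CREB at cyclic AMP response elements (CRE), while growth factors and stretch act on the same genes through serum response factor (SRF) at CArG boxes. The Fos and Jun proteins pair as AP-1, the Egr proteins bind GC-rich DNA, Atf3 often acts as a repressor, and the Nr4a receptors regulate metabolic genes without a known classical ligand.

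The libraries held 18771198 to 25637369 reads in the listed genes, and transcripts of the mitochondrial genome took 24.9% of them in WT saline, 28.9% in WT isoproterenol, 26.3% in KO saline and 22.5% in KO isoproterenol. The highest and the lowest share were thus in the isoproterenol libraries, and the part of this share in the levels of the members was not tested. P2ry6, the targeted gene, had 131 and 122 reads in the WT libraries (saline and isoproterenol) and 13 and 10 in the KO libraries. All 5 cardiomyocyte markers were present in every library and summed to 45069 to 52413 CPM. Levels are given as deposited, in CPM (reads per 1000000 library reads). A fold is the ratio of reads between 2 libraries after TMM scaling, which evens out differences in composition, with a 95% interval that covers counting error only. With 1 library per group a fold compares those libraries and has no replicate check. The words higher and lower, as counts of genes, mean that the full interval cleared 1.5-fold. In whole ventricle, fewer cells of a type and less RNA per cell cannot be told apart.

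Stretches before the transcription starts of 5 members are shown for TGACG, the core of the CRE, in capitals on either strand (CGTCA is its complement), from RefSeq on GRCm38.p6. They were picked after their matches were seen, as windows with 2 or more, to show the 3 Nr4a genes beside Fos and Egr2. Nr4a2 is shown for its family and was not beyond 1.5-fold in any comparison, while Atf3, which was, has 1 match and is not shown. The stretches are chr15:101266596-101266845 on the plus strand for Nr4a1, chr2:57124004-57124253 on the minus strand for Nr4a2, chr4:48045055-48045152 on the plus strand for Nr4a3, chr12:85473640-85473889 on the plus strand for Fos and chr10:67537620-67537868 on the plus strand for Egr2. Each ends just before an annotated exon. For Nr4a1, Nr4a3 and Egr2 the start used lies inside the span of the gene in GENCODE, downstream of its outermost start. In Egr2 the capitals CCATATATGG mark a CArG box.
Nr4a1: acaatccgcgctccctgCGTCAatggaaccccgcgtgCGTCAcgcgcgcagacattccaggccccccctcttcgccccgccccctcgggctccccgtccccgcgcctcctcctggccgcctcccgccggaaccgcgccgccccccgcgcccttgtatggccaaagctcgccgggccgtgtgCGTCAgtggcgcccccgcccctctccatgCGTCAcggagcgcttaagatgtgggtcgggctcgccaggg
Nr4a2: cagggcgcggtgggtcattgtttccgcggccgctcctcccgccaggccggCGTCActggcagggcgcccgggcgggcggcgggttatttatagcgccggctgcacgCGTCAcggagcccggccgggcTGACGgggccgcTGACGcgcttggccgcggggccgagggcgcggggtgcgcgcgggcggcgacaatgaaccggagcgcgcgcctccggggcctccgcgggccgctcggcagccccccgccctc
Nr4a3: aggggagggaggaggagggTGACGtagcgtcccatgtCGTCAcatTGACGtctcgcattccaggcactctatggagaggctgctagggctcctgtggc
Fos: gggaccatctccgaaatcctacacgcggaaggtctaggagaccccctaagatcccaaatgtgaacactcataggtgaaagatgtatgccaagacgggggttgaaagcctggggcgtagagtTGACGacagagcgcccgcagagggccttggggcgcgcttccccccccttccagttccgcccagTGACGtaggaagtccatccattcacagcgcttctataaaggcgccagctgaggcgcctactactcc
Egr2: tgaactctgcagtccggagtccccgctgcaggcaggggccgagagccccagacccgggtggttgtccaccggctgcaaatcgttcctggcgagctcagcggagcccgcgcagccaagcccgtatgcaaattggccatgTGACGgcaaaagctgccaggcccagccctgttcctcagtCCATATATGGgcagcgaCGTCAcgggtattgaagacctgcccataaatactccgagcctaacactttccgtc

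Over the 250 bases before each listed start, the Nr4a1, Nr4a2 and Nr4a3 windows each held 4 matches to TGACG on either strand (the stretch shown for Nr4a3 is shorter and holds 3). The remaining match of Nr4a3 lies past the point where an annotated exon of the gene begins. Of 32851 windows of that length in the RefSeq table, 17.8% held at least 1 match and 0.137% held 4 or more. Of the 9 members with a window, 8 held a match, with 2 in Fos and in 3 of the 5 windows listed for Egr2 (0 in the other two), 1 each in Fosb, Junb and Atf3, and 0 in Jun. Members are counted per gene, over any window listed for it, while the shares are of single windows, so the 2 are not on the same footing. The full CRE TGACGTCA, which contains this core on both strands, was found in 0 of the 9 genes and in 1.55% of all windows. A CArG box was found in Egr2 and in 1.47% of all windows, and the EGR motif GCGNGGGCG in Fosb, Nr4a1 and Nr4a2 and in 4.7%. The AP-1 motif TGANTCA (6.75% of windows) and the Nr4a motif AAAGGTCA (1.34%) were found in 0 of the 9 genes. A match describes the letters in this window and does not show a bound site. Sequence outside the 250 bases was not searched, so a gene without a match here may hold the motif elsewhere. Egr1 had no window and was not searched.

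**Figure D1:**
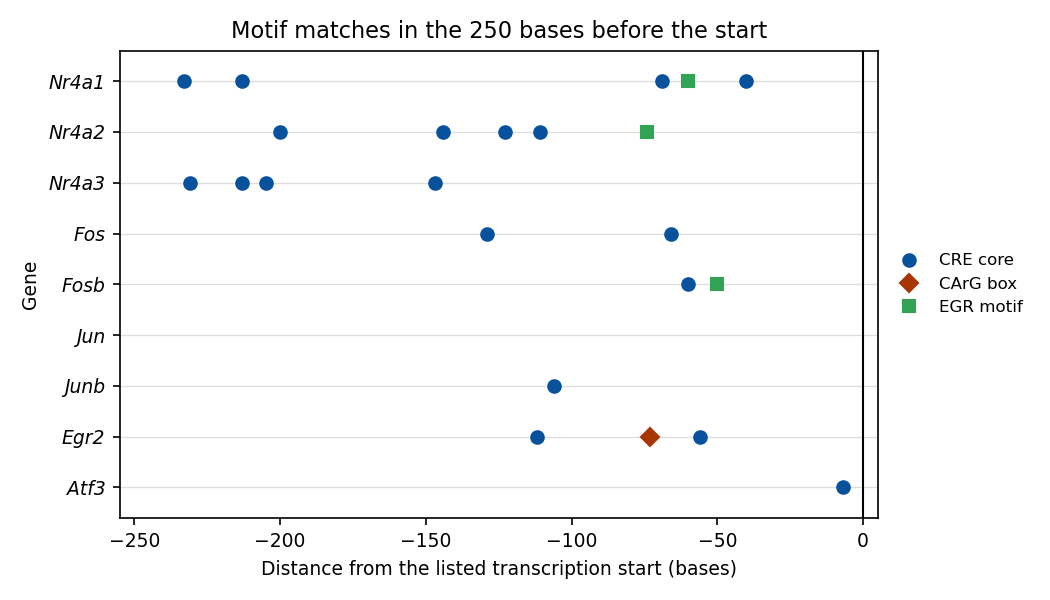
Matches on either strand to the CRE core TGACG (circles), the CArG box (diamond) and the EGR motif (squares) in the 250 bases before the listed start of 9 members, with the distance from the start in bases on the x axis. The rows of Nr4a1, Nr4a2 and Nr4a3 hold 4 core matches each, and the row of Jun holds 0.

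Most of the members are short genes. Their median span in GENCODE M21 (GRCm38) was 7035 bases, against 22915 bases over the 14257 tested genes found in that annotation, and 8 of 10 lay below that median. Nr4a3 (41295 bases) and Atf3 (47744 bases) lay above it. Nr4a1 (ENSMUSG00000023034) lies on chromosome 15 from 101254269 to 101274795, Fos (ENSMUSG00000021250) on chromosome 12 from 85473890 to 85477273, Egr2 (ENSMUSG00000037868) on chromosome 10 from 67535475 to 67542188 and Atf3 (ENSMUSG00000026628) on chromosome 1 from 191170296 to 191218039. Per kb of merged exons, Jun had the highest mean level of the 10 over the 4 libraries (13.7 to 17.4 CPM per kb), followed by Nr4a1 (2.76 to 17.2), Junb (4.78 to 8.24) and Egr1 (2.57 to 6.43). The range of Nr4a1 overlapped those of Jun, Junb and Egr1, and its place among them changed between libraries. Lower in this order were Atf3 (1.32 to 4.08 CPM per kb), Fos (0.575 to 2.74), Nr4a3 (0.588 to 1.45), Egr2 (0.333 to 1.88) and Nr4a2 (0.464 to 0.783), whose ranges overlap from each to the next. Fosb (0.0768 to 0.126 CPM per kb) was below the other 9 in every library, with 9 to 19 reads.

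**Figure D2:**
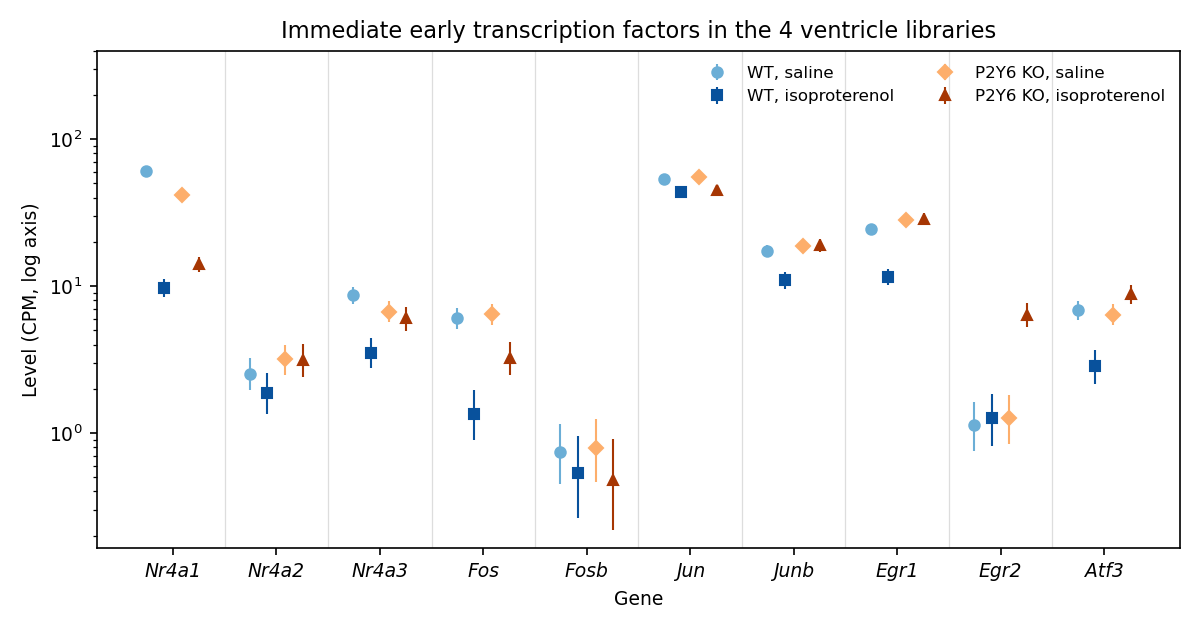
Level of each member in each of the 4 libraries, in CPM on a log axis, with bars for the exact 95% Poisson interval of the reads (counting error only). Nr4a1 and Fos sit lower in both isoproterenol libraries than in both saline libraries, and Egr2 sits apart in the KO isoproterenol library at 6.39 CPM.

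The first comparison asked how these genes stood in WT ventricle after 7 days of isoproterenol. In the treated WT library 5 of 10 members were lower and 0 higher: Nr4a1, Fos, Nr4a3, Atf3 and Egr1. Over all tested genes 0.797% were lower and 0.86% higher in that pair. The median log2 ratio was −0.79 for the members and 0.00 for all tested genes, and 9 of 10 members had a ratio below 1.

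Among the nuclear receptors, Nr4a1, which is induced by cyclic AMP in many tissues, had the largest difference of the 10 in the WT pair. It stood at 60.3 CPM (1546 reads) in WT saline and 9.7 CPM (201 reads) in WT isoproterenol, and at 41.4 CPM (951 reads) in KO saline and 14.1 CPM (264 reads) in KO isoproterenol. Both saline libraries lay far above both treated ones, and WT saline was the highest of the 4. The treated library was lower by 5.87-fold (5.08 to 6.85) in WT and by 3.34-fold (2.91 to 3.84) in KO. Nr4a3 stood at 8.66 CPM in WT saline, 3.52 in WT isoproterenol, 6.71 in KO saline and 6.02 in KO isoproterenol. The WT isoproterenol library was the low one for this gene. It was 2.32-fold lower (1.78 to 3.07) than WT saline, whereas the KO pair gave 1.26-fold lower with an interval that includes no change (0.985 to 1.63). Nr4a2, the third receptor of the family, ranged from 1.88 CPM (WT isoproterenol) to 3.18 CPM (KO saline), and its intervals included no change in each comparison of 2 libraries with TMM scaling.

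Of the AP-1 genes, Fos, a subunit that needs a Jun partner to bind DNA, stood at 6.05 CPM (155 reads) in WT saline, 1.35 CPM (28 reads) in WT isoproterenol, 6.44 CPM (148 reads) in KO saline and 3.25 CPM (61 reads) in KO isoproterenol. The saline libraries had nearly the same level, and both treated libraries lay below them. The fold was 4.17 lower (2.82 to 6.58) in WT and 2.24 lower (1.66 to 3.08) in KO, or 1.97 (1.46 to 2.72) in KO with total-count scaling, which is not counted. Fosb, a close relative of Fos, had 19 and 11 reads in WT and 18 and 9 in KO, saline first, so that a 1.5-fold change was not detectable at this depth. Its treated libraries were 1.3-fold lower (0.597 to 3.07) in WT and 1.81-fold lower (0.791 to 4.69) in KO. Jun, the member highest per kb, stood at 53.7 CPM in WT saline, 43.7 in WT isoproterenol, 55.5 in KO saline and 45.3 in KO isoproterenol. Its treated libraries were lower by 1.16-fold (1.07 to 1.27) in WT and 1.39-fold (1.27 to 1.52) in KO, both short of the 1.5-fold bound. Junb, a Jun family member with weaker transactivation, stood at 17.3, 11.0, 18.8 and 19.0 CPM in the same order, with WT isoproterenol again the low library (1.49-fold lower, 1.27 to 1.75). Its KO ratio was 1.13-fold lower (0.976 to 1.3), or 1.01-fold higher with total-count scaling. Exons of Junb overlap the abundant gene Prdx2 (207 to 236 CPM) on the other strand over 173 bases, and those of Jun overlap Junos (at most 0.869 CPM) over 232 bases. The sources used here do not name the strand setting of the counting, so reads in these overlaps cannot be told apart.

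Atf3, a stress-responsive factor, stood at 6.86 CPM (176 reads) in WT saline, 2.85 CPM (59 reads) in WT isoproterenol, 6.4 CPM (147 reads) in KO saline and 8.79 CPM (165 reads) in KO isoproterenol. The WT isoproterenol library was the low one, 2.27-fold below WT saline (1.69 to 3.12), while the KO pair had a ratio of 1.21 (0.963 to 1.52). Egr1, an activator induced by growth factors and stretch, showed the same arrangement, with 24.6 CPM in WT saline, 11.5 in WT isoproterenol, 28.4 in KO saline and 28.8 in KO isoproterenol. It was 2.01-fold lower (1.73 to 2.35) in treated WT, and in the KO pair 1.12-fold lower (0.996 to 1.25), or 1.02-fold higher (0.904 to 1.14) with total-count scaling. Egr2, known from Schwann cells and from immune cells including macrophages, had 1.13 CPM (29 reads) in WT saline, 1.25 CPM (26 reads) in WT isoproterenol, 1.26 CPM (29 reads) in KO saline and 6.39 CPM (120 reads) in KO isoproterenol. It alone of the 10 members was counted as higher in a treated library, by 4.4-fold (2.95 to 6.95) in KO, against 1.17-fold (0.663 to 2.06) in WT.

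**Figure D3:**
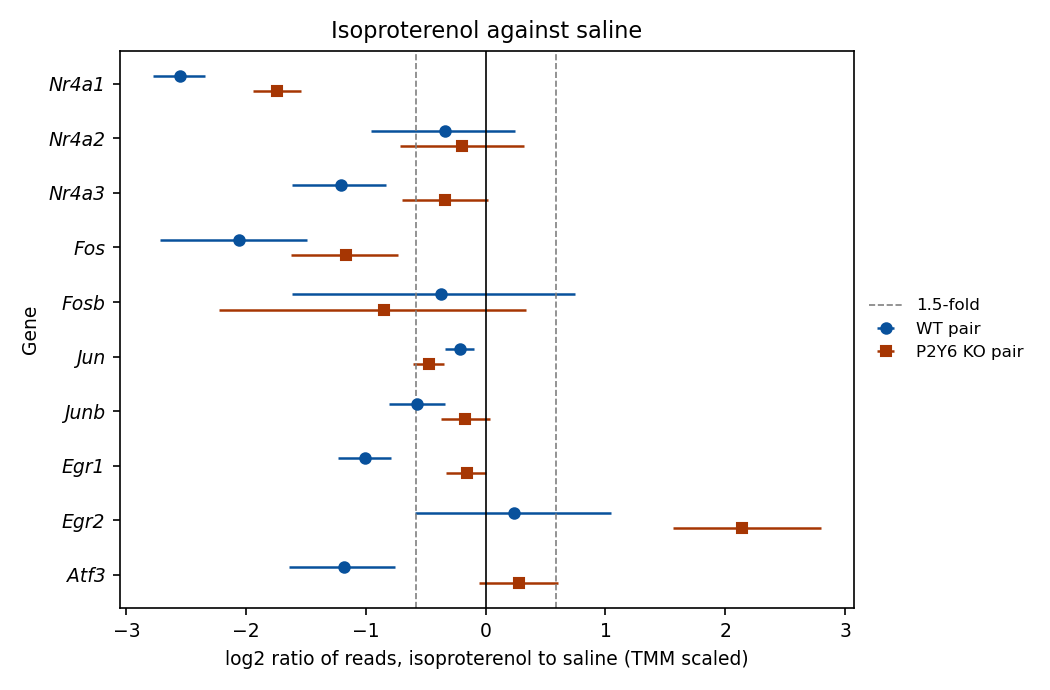
log2 ratio of reads, isoproterenol to saline, for each member in the WT pair (circles) and the KO pair (squares), with 95% counting intervals. Dashed lines mark 1.5-fold. The WT points of Nr4a1, Nr4a3, Fos, Egr1 and Atf3 have their whole interval below the lower line, and the KO point of Egr2 lies at 2.14.

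In the KO pair 2 of 10 members were lower (Nr4a1 and Fos) and 1 was higher (Egr2). Over all tested genes 4.22% were lower and 7.09% higher there, a far larger background than in WT. The median log2 ratio of the members was −0.27, or −0.08 when scaled by total counts, where the median over all tested genes became 0.18. Summed over the 10 genes, the levels were 182 CPM in WT saline, 87.3 in WT isoproterenol, 169 in KO saline and 135 in KO isoproterenol. Nr4a1 and Jun were the largest terms in both saline libraries.

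A model with additive terms for genotype and treatment (limma, 4 libraries, log2(CPM + 1) scale) takes the 2 genotypes as repeats of the treatment. It has 1 residual degree of freedom per gene. A difference of responses between the genotypes has no term of its own and enters the residual. The SE and p values also draw on the variance of all tested genes, not on the gene alone. Nr4a1 fell by 2.01 in this fit (SE 0.23, adjusted p = 4.44e-05) and Fos fell by 1.2 (SE 0.27, adjusted p = 0.02), each lower in 2 of 2 pairs, and the other 8 members did not pass. By treatment 0.881% of all tested genes were called lower and 1.69% higher. With TMM scaling the limma values were close to these, at −2.06 (SE 0.21) for Nr4a1 and −1.24 (SE 0.21) for Fos, but neither passed (adjusted p = 0.139 and 0.215). edgeR's quasi-likelihood test differs from the reported fit in the test, in its use of whole reads and in its TMM scaling. It gave −2.14 for Nr4a1 (adjusted p = 0.0266) and −1.58 for Fos (adjusted p = 0.12). Over the 5 alternatives the adjusted p ran from 6.3e-21 to 0.139 for Nr4a1 and from 0.00345 to 0.215 for Fos. By genotype the same limma fit called 0 of 10 members, with 2 (Egr1 and Egr2) at an unadjusted p below 0.05, and edgeR called 0, against 0.042% of all tested genes called higher and 0.0559% lower by limma.

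Without isoproterenol, KO and WT were set side by side with 1 library each. Genotype cannot be told apart here from other differences between these libraries. None of the 10 members was beyond 1.5-fold between the saline libraries, where 0.489% of all tested genes were beyond it (0.273% higher and 0.217% lower). Nr4a1 was 1.41-fold lower in KO (1.3 to 1.53) and Nr4a3 1.25-fold lower (1.01 to 1.54), while Egr1 was 1.2-fold higher (1.07 to 1.34). The intervals of the other 7 members included no change.

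Under isoproterenol 3 of 10 members were higher in the KO library and 0 lower: Egr2 by 4.33-fold (2.86 to 7.0), Atf3 by 2.65-fold (1.97 to 3.65) and Egr1 by 2.15-fold (1.85 to 2.52). Over all tested genes 4.2% were higher and 1.8% lower. For Egr1 and Atf3 the WT isoproterenol library was the low one of the 4, whereas for Egr2 the other 3 libraries were alike and the KO isoproterenol library was high. Fos was 2.06-fold higher in KO (1.31 to 3.37), a value that total-count scaling raised past the bound (2.38-fold, 1.51 to 3.91). Junb was 1.49-fold higher (1.26 to 1.76), Nr4a3 1.47-fold (1.09 to 2.01) and Nr4a1 1.25-fold (1.04 to 1.51), each with an interval that excludes no change but reaches below 1.5-fold. Jun was 1.12-fold lower (1.02 to 1.23), a direction that turned with total-count scaling (log2 ratio −0.16, then 0.05).

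**Figure D4:**
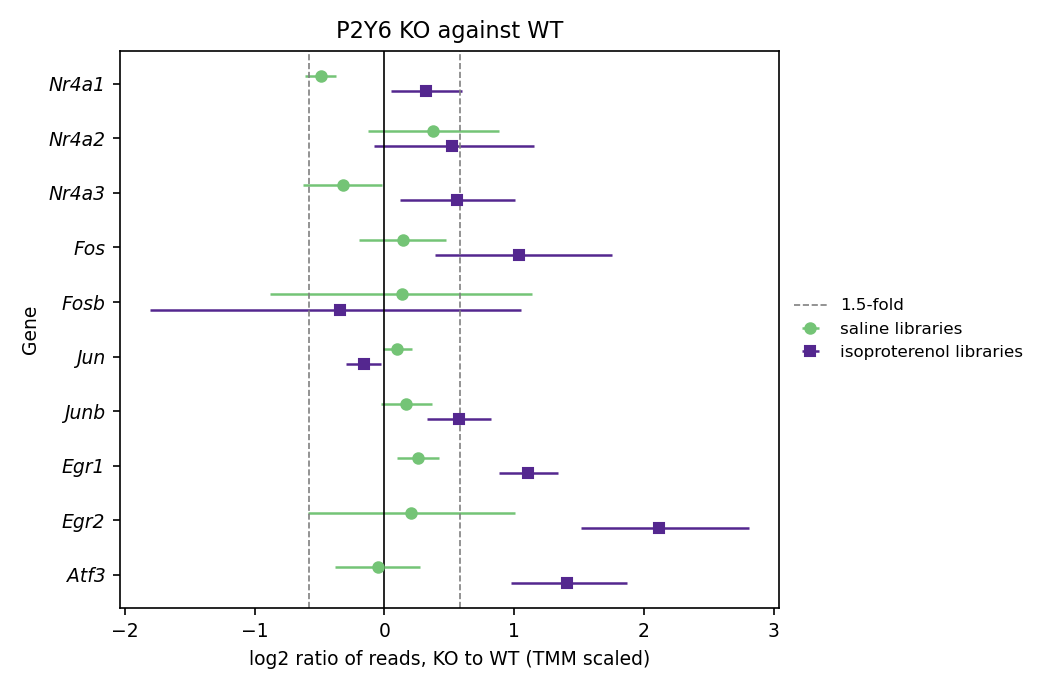
log2 ratio of reads, KO to WT, for each member between the saline libraries (circles) and between the isoproterenol libraries (squares), with 95% counting intervals and dashed lines at 1.5-fold. The saline points lie between −0.49 and 0.37, and the isoproterenol points of Egr1, Egr2 and Atf3 clear the upper line.

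The difference of the isoproterenol responses, KO minus WT on the log2 scale, was beyond 1.5-fold for 2 of 10 members, Egr2 at 1.91 (0.95 to 2.86) and Atf3 at 1.46 (0.93 to 1.99). Of all tested genes 3.83% had a difference beyond the bound upward and 5.57% in either direction. The value was 0.82 (0.53 to 1.1) for Nr4a1, 0.87 (0.36 to 1.39) for Nr4a3 and 0.9 (0.18 to 1.62) for Fos. It was 0.85 (0.58 to 1.12) for Egr1 and 0.40 (0.10 to 0.71) for Junb. Each of these intervals lay above 0 but not wholly beyond 1.5-fold, and those of Nr4a2 and Fosb included 0. With total-count scaling every gene shifts by 0.26, and the median over all tested genes became 0.26. Nr4a1, Nr4a3 and Egr1 then joined Egr2 and Atf3. The share of all tested genes beyond the bound under this scaling is not given here, so this count has no background. For Jun the value was −0.26 (−0.43 to −0.08), or 0.00 with total-count scaling. The design has no error term for this difference, which was not tested.

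Other immediate early genes were read from a list of 47, of which 46 had enough reads. In the WT pair 4 were lower and 1 higher (median log2 ratio −0.16), against 0.797% lower and 0.86% higher over all tested genes. The 4 were Sik1, a kinase induced by cyclic AMP, the antiproliferative gene Btg2, the phosphatase gene Dusp1 and the shear-responsive factor gene Klf2, and the 1 was Gadd45b, a stress-response gene. All 5 were also beyond 1.5-fold in the same direction in the KO pair with TMM scaling. Sik1 stood at 71.0 CPM in WT saline, 21.4 in WT isoproterenol, 48.7 in KO saline and 25.6 in KO isoproterenol, so both treated libraries were low, as for Nr4a1. It was 3.14-fold lower (2.83 to 3.49) in treated WT and 2.16-fold lower (1.94 to 2.41) in treated KO. The KO pair had 5 of 46 higher and 7 lower, with a median of −0.04, against 7.09% higher and 4.22% lower over all tested genes. Scaled by total counts it had 7 higher and 3 lower, with a median of 0.14, where the median over all tested genes became 0.18. Among those higher were Ctgf, a matricellular protein, by 3.89-fold (3.63 to 4.17), Rcan1, an inhibitor and target of calcineurin, by 2.02-fold (1.9 to 2.14), and the stress gene Gadd45g by 2.62-fold (2.05 to 3.4). Ctgf stood at 40.9, 49.3, 45.9 and 203 CPM and Rcan1 at 65.8, 65.5, 76.8 and 176 CPM in WT saline, WT isoproterenol, KO saline and KO isoproterenol. For both genes the KO isoproterenol library alone was high, as for Egr2.

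Relatives of the members mostly stayed within 1.5-fold. As background, 0.797% of all tested genes were lower in the WT pair, 4.22% lower in the KO pair and 4.2% higher in KO under isoproterenol. Of 17 tested AP-1, ATF and EGR relatives and NAB corepressors, 1 was lower in the WT pair (Fosl2, by 1.77-fold, 1.58 to 1.99) and 0 in the KO pair, where Fosl2 was 1.57-fold lower (1.42 to 1.75). Between the isoproterenol libraries Egr3, a close relative of Egr2, was the 1 higher in KO (0.772 CPM in WT and 2.5 CPM in KO, 2.74-fold, 1.56 to 5.29). Between the saline libraries the Egr3 ratio of KO to WT was 1.87 (1.03 to 3.53), which is not counted as higher. The levels there were 0.741 CPM (19 reads) in WT and 1.35 CPM (31 reads) in KO. Its difference of responses included 0 (0.56, −0.59 to 1.70). Of 17 upstream regulators, which include Srf, Creb1 and their coactivators, and of 6 tested Nr4a partners and related receptors, 0 were beyond 1.5-fold in any of the 4 comparisons of 2 libraries. Their medians were −0.09 and −0.14 in the WT pair and −0.02 and −0.15 in the KO pair.

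**Figure D5:**
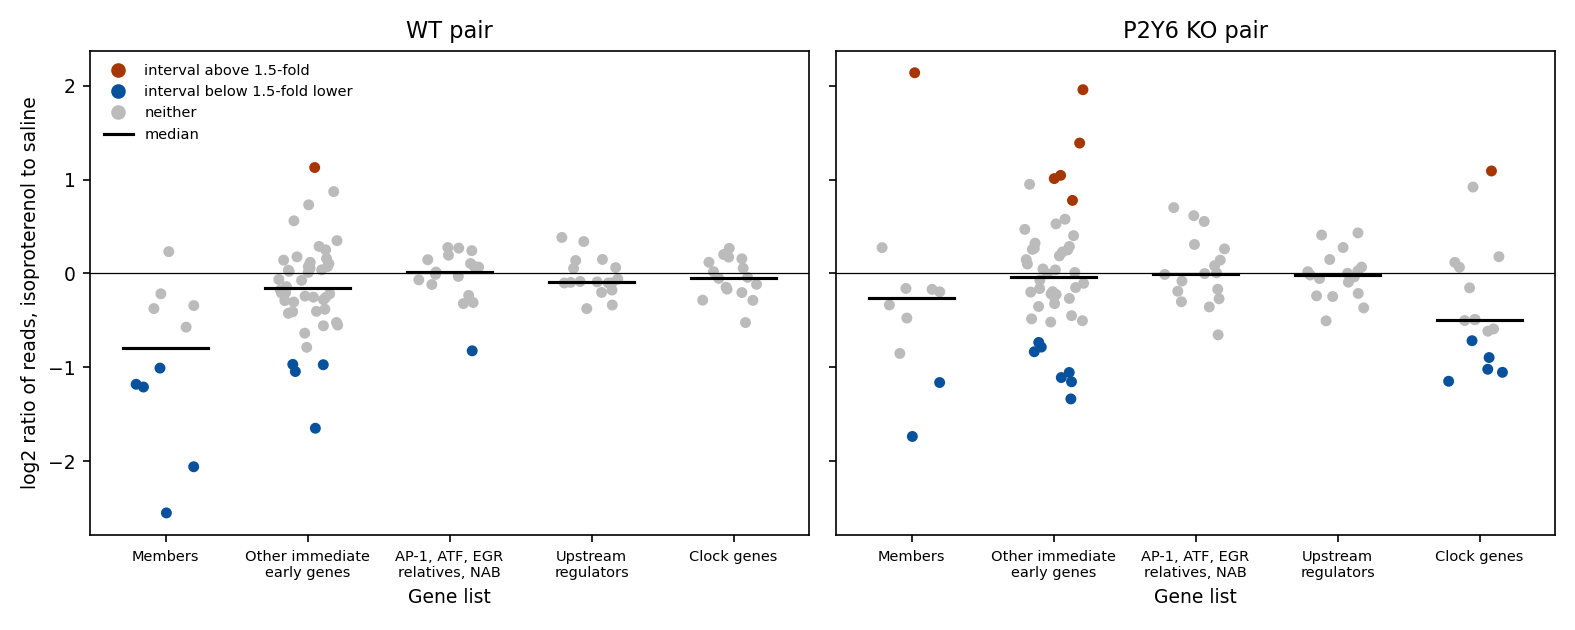
log2 ratio of reads, isoproterenol to saline, for the 10 members and the tested genes of 4 other lists in the WT pair (left) and the KO pair (right), with 1 point per gene and a line at the list median. Points are red or blue where the whole counting interval lies beyond 1.5-fold. The members have a median of −0.79 in WT, and the clock genes one of −0.05 in WT and −0.50 in KO.

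Genes that are not members were ranked by how they varied over the 4 libraries, among 10436 well-covered ones (100 reads or more on average). The members were left out of this ranking. Nearest to Nr4a1 were Irs2, Sik1, Whrn, Apln and Acot1. Their root mean square distance from it, in centred log2 levels, was 0.39 to 0.51. Of the same genes outside the members, those nearest to Fos were Pdzd3, Otud1, Apold1, Sik1 and Cxcl14, at 0.36 to 0.46. Sik1 is in both lists. With 4 libraries this likeness is a description.

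Other differences between the libraries lie beside these results. The shares of all tested genes counted with TMM scaling were 0.797% lower and 0.86% higher in the WT pair. In the KO pair they were 4.22% lower and 7.09% higher, and in KO against WT under isoproterenol 1.8% lower and 4.2% higher. Of 16 clock genes, whose levels follow the time of day, 0 were beyond 1.5-fold in the WT pair, but 5 were lower and 1 higher in the KO pair, and 7 lower and 1 higher in KO against WT under isoproterenol (with total-count scaling, 3 lower and 2 higher in the KO pair, and 4 lower and 2 higher under isoproterenol). Arntl, the clock activator, stood at 4.56 CPM in WT saline, 2.99 in WT isoproterenol, 6.49 in KO saline and 15.7 in KO isoproterenol, and the repressor Per1, itself inducible by cyclic AMP, at 87.1, 67.6, 66.5 and 34.0 CPM. Stress heat shock genes had 0 of 7 beyond 1.5-fold by treatment in either genotype (1 higher in the KO pair with total-count scaling), and 2 of 7 higher in KO under isoproterenol (Hspb1 and Hsp90aa1). In the KO isoproterenol library, the one with high Egr2, macrophage markers summed to 351 CPM against 184 to 212 in the other 3 libraries (3 of 5 higher in the KO pair), and fibroblast markers to 2881 CPM against 759 to 1180 (3 of 5 higher). Col1a1 was the largest term of that fibroblast sum, at 1634 CPM against 132 in KO saline, while Dcn stood at 887 against 507. The fibroblast markers Pdgfra and Tcf21 were not beyond 1.5-fold in the KO pair with TMM scaling. In the WT pair, where 5 members were lower, 0 of 5 macrophage, 0 of 5 endothelial and 0 of 5 cardiomyocyte markers were beyond 1.5-fold, and 2 of 5 fibroblast markers were higher. Cardiomyocyte markers had 2 of 5 lower in the KO pair, or 0 with total-count scaling. Endothelial markers had 0 of 5 beyond 1.5-fold in the KO pair, and smooth muscle and pericyte markers 1 of 5 higher there and 0 in the WT pair. Of the neutrophil, lymphocyte and red blood cell markers, 4, 3 and 4 had enough reads and 0 were beyond 1.5-fold in either pair (1 neutrophil marker was higher in the KO pair with total-count scaling). No marker of these lists was at 0 in any library. The part of cell makeup and of the time of harvest in the levels of the members was not tested.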

How the data were processed

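Ventricle RNA of 4 groups, 1 library each, was prepared with a stranded mRNA kit (per the labels' protocols). The authors deposited 1 table of CPM. HTSeq and GRCm38.p4 (mm10) are named in the submitters' processing notes, while the aligner, the annotation release and the settings of HTSeq were not given in the sources used here. The columns that name only a genotype were read as the saline samples. All values above 0 (100%) were whole multiples of 1 read within 0.01 reads, so reads were recovered as whole counts from the deposited CPM.

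Ratios added 0.5 to each count, used TMM factors (edgeR 4.0.16) and had exact conditional (Clopper-Pearson) 95% intervals. The interval of the difference of responses came from the 4 counts. Without molecular identifiers, reads are not independent molecules, and intervals cover counting error only. The additive fit was made on unscaled log2(CPM + 1) values by limma 3.58.1 with a mean-variance trend and Benjamini-Hochberg adjustment over 14301 genes at 0.05. As the table holds no deposited counts, limma was the reported test, and edgeR on recovered reads, which called 15 genes higher and 7 lower by treatment, an alternative. Both procedures were tested on simulated data. Other alternatives were the scaling (total counts, DESeq2 1.42.0 size factors), the fold bound, the filter, the added count and the pseudocount. With 1 library per group, no library could be left out.

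Gene positions came from GENCODE M21 and start windows from RefSeq (GRCm38.p6), matched by symbol for 9 of 10 members. Named genes are the members, up to 4 of each list with the interval bound farthest from no change, and the 5 non-members nearest in pattern to Nr4a1 and to Fos. Btg2, Dusp1, Klf2 and Gadd45b fall outside this rule and were chosen after their values were seen. The members and lists were chosen with earlier results of these data known.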

Additional observations from a re-analysis of the deposited data

Results flagged for a closer look

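Atf3 had responses of opposite sign in WT and KO, which is why it is listed here. Its ratio of isoproterenol to saline was −1.18 on the log2 scale in the WT pair (interval −1.64 to −0.76) and 0.27 in the KO pair (−0.05 to 0.61), a difference of 1.46. With total-count scaling the KO value was 0.46. Each group holds 1 library, the KO interval with TMM scaling includes no change, and the difference was not tested.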

How the results depend on the processing

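All 4 comparisons of 2 libraries and the difference of responses kept the same number of members beyond 1.5-fold, within 1.5 times, with DESeq2 size factors, with no filter on low reads and with 1 added to each count. With total-count scaling the members lower in the KO pair went from 2 to 1 (Fos was lost) and those with a higher difference of responses from 2 to 5. That scaling also moved the median difference over all tested genes to 0.26, and the shares of all tested genes under it are not given here. With a 2-fold bound the lower members were 2 in the WT pair (Nr4a1 and Fos) and 1 in the KO pair (Nr4a1), the higher members under isoproterenol were 1 (Egr2), and 0 had a higher difference. The shares of all tested genes at the 2-fold bound are not given here, so these counts have no background. The additive limma fit by treatment called 2 members lower, which became 0 with TMM scaling and 1 with edgeR. By genotype it called 0 members, which became 1 with no filter (Egr1, adjusted p = 0.0493, against 0.704 in the reported fit). Over all genes it called 242 higher and 126 lower by treatment. These became 420 and 227 with a pseudocount of 0.1 CPM, 636 and 329 with no filter, 0 and 1 with TMM scaling (1079 and 932 at an unadjusted p below 0.05) and 15 and 7 with edgeR. By genotype it called 6 higher and 8 lower, which became 13 higher with a pseudocount of 0.5 CPM, 45 and 15 with 0.1 CPM, 162 and 33 with no filter, 0 and 0 with TMM scaling (215 and 197 at an unadjusted p below 0.05) and 2 and 1 with edgeR. The cause was not tested. None of the member ratios counted as higher or lower changed sign under total-count scaling, DESeq2 size factors or 1 added to each count. No paired analysis was possible because each group holds 1 library and the labels give no replicate numbers. For Fosb, with 9 to 19 reads per library, depth leaves an interval of 0.325 to 1.67 on the WT ratio, so a change of 1.5-fold would not be detectable.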
